A study of Homo sapiens with 6 samples.

Results

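The genes described here are 10 ligands and receptors of immune checkpoint pathways that tumor cells can carry on their surface: VSIR, CD274, PDCD1LG2, CD276, VTCN1, LGALS9, PVR, NECTIN2, CD47 and TNFRSF14. They were chosen by name, matched to the gene symbols of the expression table, and all 10 were among its 17448 genes. The data are RNA-seq of HCC2814 cells, a human lung squamous cell carcinoma (LUSC) line, grown in culture. The 3 WT samples received non-targeting control guide RNA and the 3 MLST8-KO samples guide RNA that directs Cas9 to MLST8. MLST8 encodes a shared component of the kinase complexes mTORC1 and mTORC2. The paper's blots of this line list 3 numbered control entries and 3 numbered MLST8 entries. Whether the 3 sequenced samples of a group share a guide was not established here. Guides of both groups were delivered by lentivirus, followed by antibiotic selection. The sources used here do not say whether the HCC2814 cells were kept as a pool or as a clone. The comparison asks which of these ligands the line transcribes at all and which differ when MLST8 is targeted.

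Checkpoint ligands bind receptors on T cells, natural killer cells or macrophages and dampen their response to the cell that carries them. They belong to several families. The B7 family includes CD274 (PD-L1), PDCD1LG2 (PD-L2), CD276 (B7-H3), VTCN1 (B7-H4) and VSIR (VISTA), the nectin family includes PVR (CD155) and NECTIN2 (CD112), and LGALS9 is a galectin. CD47 is the signal by which cells avoid being engulfed by macrophages, and TNFRSF14 (HVEM) is a TNF receptor family member that acts as the ligand of BTLA. PD-L1 is known for its induction by interferon-gamma, and several of these proteins are also controlled after translation, which RNA-seq does not measure.

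Libraries held between 14381677 and 15744165 estimated counts each. A count of 0 allows up to 3 counts, and this limit covers counting error only. MLST8 itself was at 57.97, 56.9 and 60.7 CPM (counts divided by the TMM-scaled library size) in WT samples and at 25.5, 38.9 and 25.7 CPM in MLST8-KO samples. Here and below, values of a group's samples stand in the order of replicates 1, 2 and 3. The label of the line was checked against markers. All 14 genes of the squamous epithelial list had at least 10 counts in every sample. Some of them, such as KRT8, KRT18, CDH1 and EPCAM, are not particular to squamous cells. The 14 genes summed to 15115 to 22513 TPM (transcript abundance scaled by length and depth) in WT and 26714 to 29507 TPM in MLST8-KO samples. Against the sum, the mean TPM of KRT8, KRT18 and SFN was lower in MLST8-KO samples. Markers of T and natural killer cells were near 0: 6 of 12 were in the table, each had under 10 counts in every sample, and they summed to 7 to 15 counts per sample. Markers of B cells summed to at most 5 counts and those of myeloid cells to 22 to 29 counts. The 9 markers of fibroblasts and endothelium summed to 499 to 557 counts in WT and 552 to 646 counts in MLST8-KO samples, of which COL1A1, a collagen gene, made up 435 to 548 counts per sample. Of these 9, 2 had at least 10 counts in every sample, and the part of such cells in the results below was not tested. MLST8-KO replicate 1 stood apart in liver transcripts, which summed to 3797 counts there, and results that rest on it are also given without it. In cultures, fewer cells that express a gene and less RNA per cell cannot be told apart.

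The line transcribed 4 of the 10 ligands at a high or moderate level and the other 6 at a low one. Levels of different genes are compared in TPM, which is scaled by transcript length. CD276, whose protein B7-H3 is a B7 family ligand found on many carcinomas, was the highest. It was at 104, 108 and 117 TPM in WT samples and at 113, 119 and 118 TPM in MLST8-KO samples. Its mean was above 92.0% of all genes listed. CD276 made up 48.5 to 53.5% of the summed TPM of the 10 genes, and its mean level was 2.41 times that of the next gene, NECTIN2. NECTIN2, a ligand of the inhibitory receptors PVRIG and TIGIT and of the activating receptor CD226, was at 50.1, 50.7 and 49.4 TPM in WT samples and at 43.7, 44.1 and 43.9 TPM in MLST8-KO samples. PVR, the main ligand of TIGIT and also a ligand of CD226 and CD96, ranged from 27.9 to 30.1 TPM over the 6 samples. CD47, which binds SIRPA on macrophages, ranged from 23.0 to 26.3 TPM. In every sample the order was CD276, NECTIN2, PVR, CD47, and no range of these genes overlapped that of its neighbor in this order.

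VSIR, whose protein VISTA acts both as a ligand and as a receptor on immune cells, came next at 2.44 to 4.59 TPM, and its range overlapped neither that of CD47 above it nor that of LGALS9 below it. The remaining 5 genes were near the limit of what these libraries show. LGALS9, which encodes galectin-9, had 10 to 16 counts per sample (0.740 to 1.34 TPM). CD274, the ligand of PD-1, had 13 to 30 counts (0.530 to 1.01 TPM). VTCN1, an inhibitor of T cell activation, had 1 to 26 counts (0.0600 to 1.30 TPM). TNFRSF14 had 1 to 9 counts (0.0900 to 0.670 TPM), and PDCD1LG2, the other ligand of PD-1, had 0 to 2 counts (0 to 0.110 TPM). Each of these 5 overlapped the next of them in the order of levels, though LGALS9 lay above TNFRSF14 and PDCD1LG2, and CD274 above PDCD1LG2, without overlap. The PD-L1 transcript stood among the low ones, at a mean of 0.785 TPM against 113 TPM for that of B7-H3.

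The summed TPM of the 10 genes was 215, 220 and 226 in WT samples and 218, 225 and 220 in MLST8-KO samples. The groups overlapped, and the 2-sided exact permutation test of the sum gave p = 1.0. The 4 highest genes held 96.4 to 97.9% of this sum in each sample. The 5 lowest genes together were at 2.50, 2.77 and 2.27 TPM in WT samples and at 3.28, 3.40 and 3.30 TPM in MLST8-KO samples, and these groups did not overlap (exact permutation p = 0.1, the smallest that 3 samples against 3 allow, and 0.2 after adjustment over the 8 single values tested in this way). VTCN1 made up most of that difference, with a mean of 0.337 TPM in WT and 1.04 TPM in MLST8-KO samples.

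**Figure D1:**
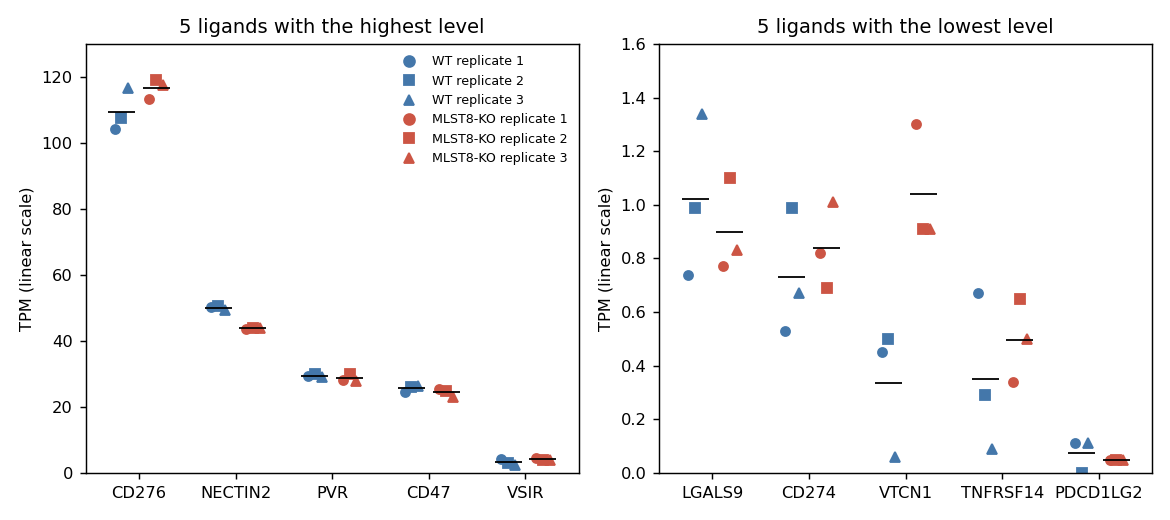
Level of each checkpoint ligand in TPM on linear axes, ordered by mean level, with the 5 highest on the left and the 5 lowest on the right. Each point is a sample and each line a group mean of 3 samples. CD276 lies between 104 and 119 TPM in every sample, while every point on the right lies at or below 1.34 TPM.

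For the comparison of groups, counts of all genes were fitted together with edgeR, and levels are given in CPM after TMM scaling, the scale of that test. Of the 10 ligands, 8 passed the filter on low counts, and TNFRSF14 and PDCD1LG2 did not and were not tested. Among the 8 tested, 1 was higher (VTCN1) and 1 was lower (NECTIN2) in MLST8-KO cells at an adjusted p under 0.05. Over all 12951 genes tested, 16.3% were higher and 15.7% were lower by the same edgeR test, so 1 of 8 in each direction was near the background. The median log2 fold change of the 8 ligands was -0.09, against 0.00 for all genes tested. On the CPM scale, every MLST8-KO sample was below every WT sample for 3 ligands (NECTIN2, PVR and CD47), where 24.2% of all genes were, and above for 1 (VTCN1), where 24.8% were. On the TPM scale the groups were separate only for NECTIN2 and VTCN1, with 15.1% of all genes below and 32.8% above.

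NECTIN2 (Entrez gene 5819; chromosome 19, 44846175 to 44889228, plus strand, GRCh38) fell. It had 1005, 956 and 922 counts in WT samples and 822, 868 and 870 counts in MLST8-KO samples. In CPM it was at 66.7, 65.8 and 66.5 in the WT samples and at 53.0, 53.6 and 55.7 in the MLST8-KO samples. The 3 WT samples lay within 0.834 CPM of each other, and all 3 MLST8-KO samples lay at least 10.1 CPM below them. The log2 fold change was -0.29 (SE 0.07, 95% interval -0.46 to -0.13, adjusted p = 0.0152, edgeR), or a level 0.816 times that of WT cells. The call was lost without WT replicate 2 (adjusted p = 0.0582, edgeR) and without MLST8-KO replicates 1 (0.0727) and 2 (0.0511), while the log2 fold change stayed between -0.32 and -0.28 in the 6 fits that each left out a sample. On log2(TPM + 1), where the median of all genes was 0.09, it was -0.19 with an adjusted p of 0.0776 by limma.

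PVR lies 182.6 kb from NECTIN2 on the same chromosome (Entrez gene 5817; 44643798 to 44663583, plus strand) and shares with it the receptors TIGIT and CD226. It was at 92.5, 93.4 and 91.5 CPM in WT samples and at 79.9, 82.0 and 80.5 CPM in MLST8-KO samples. All MLST8-KO samples lay below all WT samples on this scale, but the log2 fold change of -0.19 (SE 0.07, 95% interval -0.35 to -0.04) did not pass the threshold (adjusted p = 0.0602, edgeR). In TPM the PVR groups overlapped, at 29.5 ± 0.432 and 28.8 ± 1.15 (SD, n = 3 each). The end of PVR overlaps CEACAM19 on the same strand, which had 110 to 156 counts, so reads of the shared stretch could have been assigned to either gene. The ratio of NECTIN2 to PVR counts within a sample does not depend on the scaling of libraries. It was 0.720, 0.705 and 0.727 in WT samples and 0.663, 0.654 and 0.692 in MLST8-KO samples. Every MLST8-KO ratio was below every WT ratio (exact permutation p = 0.1, the smallest possible, 0.2 after adjustment).

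CD47 (Entrez gene 961; chromosome 3, 108043094 to 108091862, minus strand) was at 70.8, 75.0 and 77.9 CPM in WT samples and at 68.6, 65.7 and 64.3 CPM in MLST8-KO samples. The closest samples of the groups, WT replicate 1 and MLST8-KO replicate 1, were 2.26 CPM apart. The log2 fold change of -0.17 (SE 0.08, 95% interval -0.35 to 0.00) did not pass the threshold (adjusted p = 0.112, edgeR), and in TPM the groups overlapped.

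CD276 (Entrez gene 80381; chromosome 15, 73683966 to 73714518, plus strand) was at 175, 183 and 203 CPM in WT samples and at 177, 186 and 192 CPM in MLST8-KO samples. The MLST8-KO samples all lay inside the WT range. The log2 fold change was -0.01 (SE 0.08, adjusted p = 0.907, edgeR), with a 95% interval from 0.873 to 1.12 times the WT level, and its sign turned with the scaling (0.04 with upper quartile scaling in edgeR, 0.09 on log2(TPM + 1) by limma). The ratio of NECTIN2 to CD276 counts was 0.381, 0.361 and 0.328 in WT samples and 0.300, 0.289 and 0.290 in MLST8-KO samples. These groups did not overlap (exact permutation p = 0.1, 0.2 after adjustment). The ratios of NECTIN2 to CD276 and to PVR use the same NECTIN2 counts as the edgeR test and are not separate support. For PVR to CD276 and for CD47 to CD276 the ratios of the groups overlapped (exact permutation p = 0.2 each, 0.267 after adjustment). For PVR to CD47 they overlapped as well (exact permutation p = 0.7, 0.8 after adjustment). CD276 held 48.5 to 51.5% of the summed TPM in WT and 51.8 to 53.5% in MLST8-KO samples (exact permutation p = 0.1, 0.2 after adjustment).

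**Figure D2:**
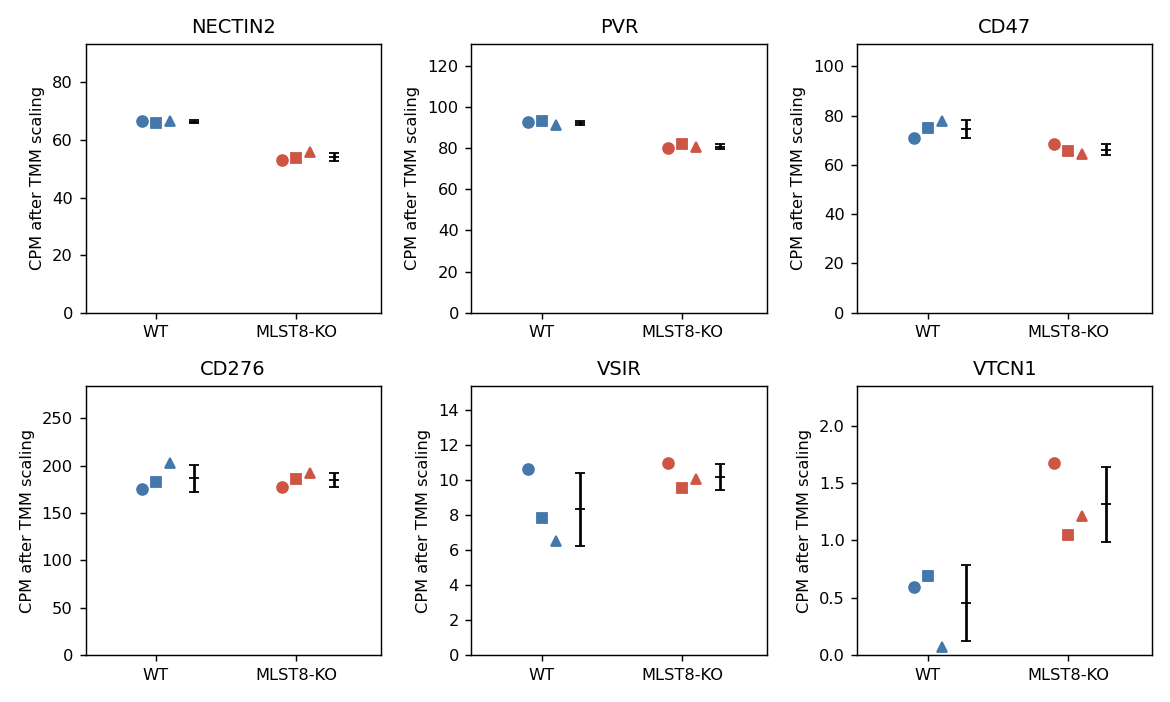
CPM after TMM scaling (y axis, from 0) of 6 checkpoint ligands in the 3 WT samples (blue) and the 3 MLST8-KO samples (red), where circles, squares and triangles are replicates 1, 2 and 3. Black marks give the mean and SD of each group. NECTIN2, PVR and CD47 are lower and VTCN1 higher in every MLST8-KO sample than in every WT sample, and CD276 and VSIR overlap.

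VTCN1 (Entrez gene 79679; chromosome 1, 117143587 to 117210960, minus strand) rose, at very few counts. It had 9, 10 and 1 counts in WT samples and 26, 17 and 19 counts in MLST8-KO samples. The sums were 20 counts in WT (95% Poisson interval 12.2 to 30.9) and 62 in MLST8-KO samples (47.5 to 79.5). In CPM it was at 0.597, 0.689 and 0.0721 in WT samples and at 1.68, 1.05 and 1.22 in MLST8-KO samples, without overlap. The log2 fold change was 1.50 (SE 0.50, 95% interval 0.40 to 2.60, adjusted p = 0.0421, edgeR). The filter kept VTCN1 through its 3 MLST8-KO samples, since only 1 WT sample reached the minimum. The call was lost in 5 of the 6 fits that left out a sample (adjusted p of 0.0633, 0.0836, 0.144, 0.0762 and 0.0885 by edgeR without WT replicates 2 and 3 and MLST8-KO replicates 1, 2 and 3) and with DESeq2 (adjusted p = 0.0688). The log2 fold change stayed between 1.02, without WT replicate 3, and 1.90, without WT replicate 2.

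VSIR (Entrez gene 64115; chromosome 10, 71747559 to 71773498, minus strand) was at 10.6, 7.85 and 6.49 CPM in WT samples and at 10.97, 9.51 and 10.1 CPM in MLST8-KO samples. WT replicate 1 lay inside the range of the MLST8-KO samples and the other two WT samples lay below it. The 95% interval of the difference ran from 0.925 to 1.61 times the WT level (adjusted p = 0.239, edgeR), and VSIR passed the threshold only without WT replicate 1 (log2 fold change 0.50, adjusted p = 0.0274, edgeR). VSIR lies within the span of CDH23, which is on the opposite strand and had 7 to 20 counts, and whether reads were counted by strand was not given in the sources used here. PSAP, a neighboring gene, was at 775 ± 30.5 CPM in WT and 775 ± 29.8 CPM in MLST8-KO samples (SD, n = 3 each).

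For the low ligands a difference was not detectable at this depth unless it was large. CD274 (Entrez gene 29126; chromosome 9, 5450503 to 5470566, plus strand) was at 0.862, 1.93 and 1.37 CPM in WT and at 1.35, 1.24 and 1.92 CPM in MLST8-KO samples, and these ranges overlapped nearly in full. The interval of its difference ran from 0.645 to 1.83 times the WT level (adjusted p = 0.807, edgeR). PDCD1LG2 (Entrez gene 80380; chromosome 9, 5510570 to 5571254, plus strand), which lies 40.0 kb from CD274, had 2, 0 and 2 counts in WT samples and 1 in each MLST8-KO sample, all under the limit of 3 counts that a count of 0 allows, so no fold change is given. LGALS9 (Entrez gene 3965; chromosome 17, 27629798 to 27649560, plus strand) had 10, 13 and 16 counts in WT and 10, 14 and 10 counts in MLST8-KO samples. The interval of its difference ran from 0.465 to 1.38 times the WT level (adjusted p = 0.502, edgeR). LGALS9 is uncertain, because its close copies LGALS9B (0 to 5 counts) and LGALS9C (4 to 11 counts) can share reads with it. TNFRSF14 (Entrez gene 8764; chromosome 1, 2555639 to 2565382, plus strand) had 9, 4 and 1 counts in WT and 5, 9 and 6 counts in MLST8-KO samples, and with no filter on low counts its log2 fold change was 0.39 (adjusted p = 0.707, edgeR).

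**Figure D3:**
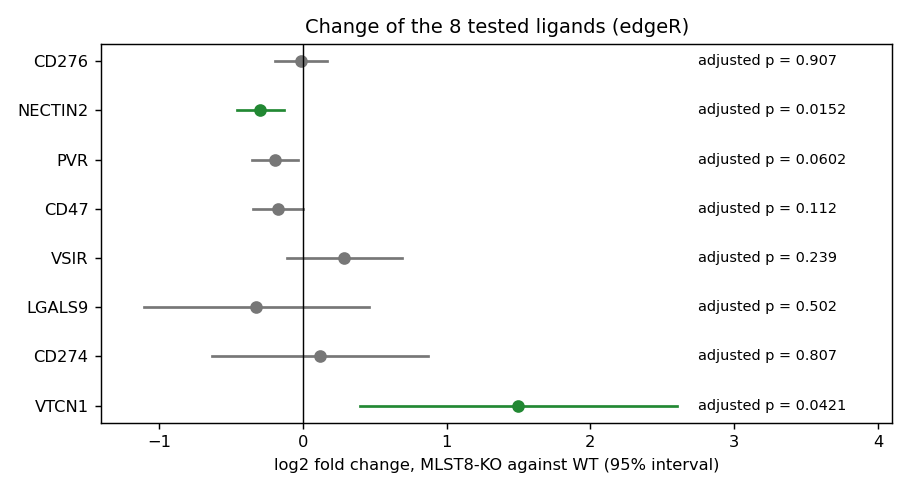
Log2 fold change of the 8 tested checkpoint ligands in MLST8-KO against WT cells (x axis) with 95% intervals and adjusted p from edgeR, from the highest level at the top to the lowest at the bottom. Green marks the 2 genes past the threshold of 0.05 (NECTIN2 at -0.29 and VTCN1 at 1.50). Intervals widen toward the low genes at the bottom.

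**Figure D4:**
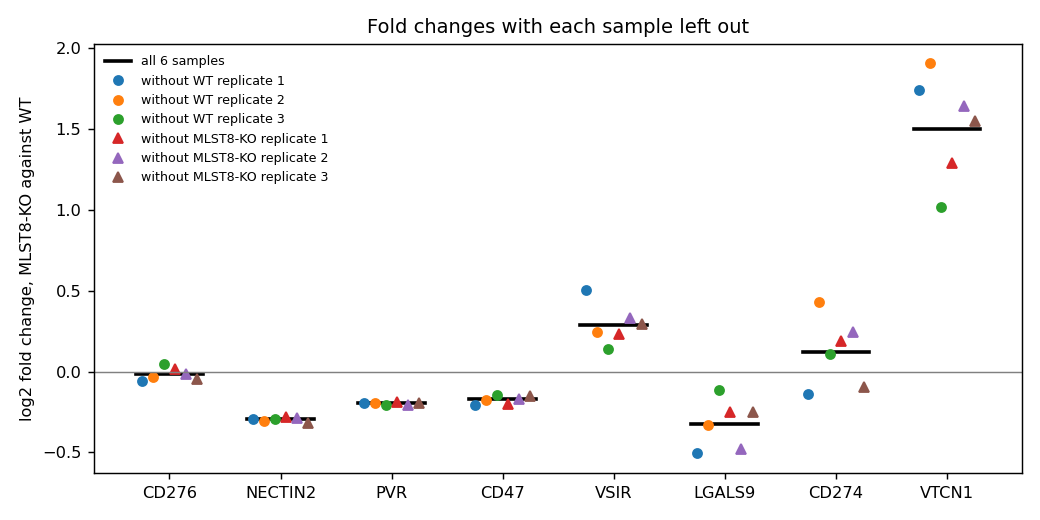
Log2 fold change (y axis) of the 8 tested ligands with all 6 samples (black lines) and with each sample left out in turn (points, circles for WT and triangles for MLST8-KO samples). NECTIN2 stays between -0.32 and -0.28, while CD274 runs from -0.14 to 0.43 and VTCN1 from 1.02 to 1.90.

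Genes that surround these ligands in their pathways were described by lists, against the 16.3% higher and 15.7% lower genes and the median of 0.00 over all genes tested. The family list holds other ligands of the B7, butyrophilin, TNF and nectin families. It also holds the receptors PVRIG, which is listed again among the receptors below, and CD40. CD58, CD48 and CD99, which are outside these families, are on it too. Of its 16 tested genes, 1 was higher and 1 lower, with a median log2 fold change of 0.03. TNFSF9, the ligand that costimulates T cells through 4-1BB, rose from 8.20 ± 0.533 to 11.5 ± 1.64 CPM (SD, n = 3 each; log2 fold change 0.49, adjusted p = 0.0305, edgeR). BTN3A1, a butyrophilin sensed by gamma delta T cells whose close copies BTN3A2 and BTN3A3 can share its reads, fell from 13.0 ± 2.58 to 9.18 ± 0.443 CPM (log2 fold change -0.50, adjusted p = 0.0374, edgeR). TNFSF9 lost its call without WT replicate 2 and without MLST8-KO replicates 1 and 2, and BTN3A1 without WT replicate 3 and without each MLST8-KO replicate. With upper quartile scaling no gene of this list was lower.

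The list of other inhibitory surface and secreted factors had 2 higher and 6 lower genes among 16 tested, with a median of -0.08. CD24, a signal to macrophages like CD47, rose (log2 fold change 0.72, adjusted p = 0.0147, edgeR) from 254 ± 74.8 to 419 ± 51.9 CPM (SD, n = 3 each). HMGB1, a nuclear protein that acts as an alarm signal once released, also rose (0.45, adjusted p = 0.00748, edgeR), though its processed copies elsewhere in the genome make its counts uncertain. SELPLG, which encodes the VISTA ligand PSGL-1, fell the most of the 16 tested genes, by 1.93 on the log2 scale (adjusted p = 0.00281, edgeR). Its level was low, with 67, 71 and 52 counts in WT samples and 12, 18 and 24 counts in MLST8-KO samples (means of 3.21 and 0.900 TPM). ARG2, an arginase, fell by 0.95 (adjusted p = 0.00412, edgeR) and LGALS1, which encodes galectin-1, fell by 0.52 (adjusted p = 0.0427, edgeR). SELPLG, ARG2 and HMGB1 kept their calls with each sample left out. CD24 lost its call without WT replicate 2 and without MLST8-KO replicates 1 and 2, and LGALS1 kept its call only without WT replicate 1. The 6 lower genes became 2 with upper quartile scaling and 2 to 6 with a sample left out, the lowest count being without WT replicate 2 or MLST8-KO replicate 1 or 2.

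The interferon-gamma pathway, which induces PD-L1 in many tumor cells, had 5 higher and 2 lower genes among 19 tested, with a median log2 fold change of 0.12. The chemokines CXCL10 and CXCL11, which attract T cells, rose. CXCL10 went from 6.77 ± 2.06 to 18.4 ± 3.70 CPM (SD, n = 3 each; log2 fold change 1.44, adjusted p = 0.00339, edgeR). CXCL11 went from 2.84 ± 0.617 to 6.70 ± 0.769 CPM (1.23, adjusted p = 0.00371, edgeR). Without MLST8-KO replicate 1, the log2 fold changes were 1.29 for CXCL10 and 1.15 for CXCL11 (adjusted p = 0.0216 and 0.0240, edgeR). Both chemokines kept their calls with each sample left out. GBP1, an interferon-induced GTPase, rose by 1.03 on the log2 scale (adjusted p = 0.0207, edgeR) and lost its call without WT replicate 2 and without MLST8-KO replicates 1 and 2. The other 2 higher genes, named after their values were seen, were CXCL9 (1.65, adjusted p = 0.0114, edgeR, at a mean of 16.3 counts) and IRF1 (0.43, adjusted p = 0.0140, edgeR), a transcription factor of this pathway. CXCL9 had 8, 5 and 9 counts in WT and 30, 30 and 16 counts in MLST8-KO samples, so it passed the filter only through the MLST8-KO group. With at least 10 counts required in every sample, it was not tested and 4 of 17 genes of the list were higher. CXCL9 and IRF1 both lost their calls without WT replicate 2 and without MLST8-KO replicate 1. IFNGR2, a chain of the interferon-gamma receptor, fell by 0.72 on the log2 scale (adjusted p = 0.00401, edgeR), and SOCS1, a feedback inhibitor of its signaling, fell by 0.68 (adjusted p = 0.00903, edgeR). IFNGR2 and SOCS1 kept their calls with each sample left out. Without WT replicate 2 or without MLST8-KO replicate 1, 2 genes of the list were higher. CD274 is given beside them: its log2 fold change was 0.12, with an interval from -0.63 to 0.87.

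Promoters of the ligands were searched for the interferon-stimulated response element and other motifs on both strands, in RefSeq windows of GRCh38.p14 that run from 250 bases before to 50 bases after each start site. Of the 10 ligands, 9 had a window, and CD276 had 2. A ligand is counted when any of its windows holds a match, while the percents are of single windows. The interferon element (GAAANNGAAA) was in the windows of 2 of the 9, CD274 and LGALS9, and in 3.57% of all 35116 windows. Both sequences are shown because these are the ligands with the interferon element, beside the interferon-gamma genes above. Capitals mark that element, which lies on the strand opposite to the one shown, and in CD274 also the gamma-activated site (TTCNNNGAA, in 7.66% of all windows). In CD274 (chr9:5450292-5450591, plus strand) 2 matches of the interferon element overlap each other, 208 and 202 bases before the start, and the gamma-activated site begins 125 bases before it. In LGALS9 (chr17:27630938-27631237, plus strand) the element begins 9 bases before the start.
CD274: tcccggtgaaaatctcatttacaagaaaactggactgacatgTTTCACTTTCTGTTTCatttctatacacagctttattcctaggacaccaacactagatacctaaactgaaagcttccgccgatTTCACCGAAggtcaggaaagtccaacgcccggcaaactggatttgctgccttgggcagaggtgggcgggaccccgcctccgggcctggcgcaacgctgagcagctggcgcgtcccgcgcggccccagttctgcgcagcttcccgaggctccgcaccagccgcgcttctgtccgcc
LGALS9: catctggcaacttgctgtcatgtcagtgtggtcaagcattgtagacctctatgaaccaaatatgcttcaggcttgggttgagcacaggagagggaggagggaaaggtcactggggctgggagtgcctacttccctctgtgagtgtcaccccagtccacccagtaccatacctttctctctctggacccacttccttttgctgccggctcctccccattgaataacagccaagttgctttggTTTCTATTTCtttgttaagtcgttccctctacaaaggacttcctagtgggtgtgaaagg
The windows of the other 7 ligands held neither the interferon element nor the gamma-activated site. The GC box (GGGCGG, in 45.0% of all windows) was found for 5 of the 9 (CD274, CD276, CD47, NECTIN2 and VSIR). The core of the hypoxia response element (ACGTG, in 21.4% of all windows) was found for CD47 and for CD276, there only in the later of its 2 windows. The TATA box (TATAAA, in 11.5% of all windows) was found in none of the 9. These are matches of letters only, and binding was not measured.

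Genes that modify or degrade the ligand proteins had 2 higher and 4 lower members among 17 tested, with a median of 0.00. QPCTL, the enzyme that modifies the start of CD47 so that SIRPA can bind it, fell from 25.4 ± 6.17 to 15.2 ± 1.47 CPM (SD, n = 3 each; log2 fold change -0.73, adjusted p = 0.0102, edgeR). FUT8, which adds core fucose to glycoproteins such as B7-H3, fell from 39.4 ± 1.20 to 30.7 ± 1.88 CPM (-0.36, adjusted p = 0.0130, edgeR). GSK3B, a kinase that marks PD-L1 for degradation, fell from 236 ± 51.9 to 128 ± 10.8 CPM (-0.88, adjusted p = 0.00356, edgeR), and the ubiquitin ligase scaffold CUL3 fell by 0.27 on the log2 scale (adjusted p = 0.0223, edgeR). HIP1R, which directs PD-L1 to the lysosome, rose by 0.44 (adjusted p = 0.0113, edgeR), and ZDHHC3, a palmitoyltransferase named after its value was seen, by 0.27 (adjusted p = 0.0288, edgeR). GSK3B kept its call with each sample left out. FUT8 lost it without MLST8-KO replicate 2, ZDHHC3 in all but the fit without WT replicate 1, QPCTL without MLST8-KO replicate 1, HIP1R without WT replicate 2 and MLST8-KO replicate 1, and CUL3 without WT replicate 2 and MLST8-KO replicates 1 and 2. With 1 sample left out, 2 to 5 genes of the list were lower and 0 to 2 higher.

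Among the ligands of natural killer cells, 1 of 10 tested was higher and 1 lower, with a median of -0.07. MICB, a stress-induced ligand of the activating receptor NKG2D, whose close copy MICA can share its reads, fell from 15.9 ± 9.37 to 5.61 ± 1.41 CPM (SD, n = 3 each; log2 fold change -1.49, adjusted p = 0.0129, edgeR). Its counts were 143, 167 and 369 in WT and 62, 107 and 97 in MLST8-KO samples. The log2 fold change was -0.90 without WT replicate 3, and the call was lost without MLST8-KO replicate 1. CLEC2B, a ligand of another activating receptor of these cells, rose from 1.86 ± 0.178 to 3.61 ± 0.522 CPM (0.95, adjusted p = 0.0103, edgeR) and kept its call with each sample left out. None of the 6 tested partners of CD47 and of galectins passed the threshold of edgeR, and 1 had an unadjusted p under 0.05. With a sample left out, 1 gene was lower without WT replicate 1 (P4HB), without WT replicate 3 (THBS1) and without MLST8-KO replicate 2 (THBS1), and DESeq2 called 1 lower (P4HB). The partners with the highest TPM were P4HB (-0.29, adjusted p = 0.0876) and CALR (-0.09, adjusted p = 0.521), both by edgeR.

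Receptors on immune cells were mostly near 0. Their list is wider than the receptors of the ligands described here. It also holds receptors of other ligands, such as CTLA4, CD28, ICOS and CD27. Of all 19 listed, 13 were in the table and 2 passed the filter. SIRPA, the receptor of CD47, was at 74.1 ± 3.59 CPM in WT and 86.7 ± 12.3 CPM in MLST8-KO samples (SD, n = 3 each; log2 fold change 0.23, adjusted p = 0.122, edgeR). PVRIG, the receptor of NECTIN2, was at 5.56 ± 0.742 and 7.34 ± 1.27 CPM (0.40, adjusted p = 0.112, edgeR). PDCD1 and CTLA4 were not among the 13 in the table and so were not analysed here.

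**Figure D5:**
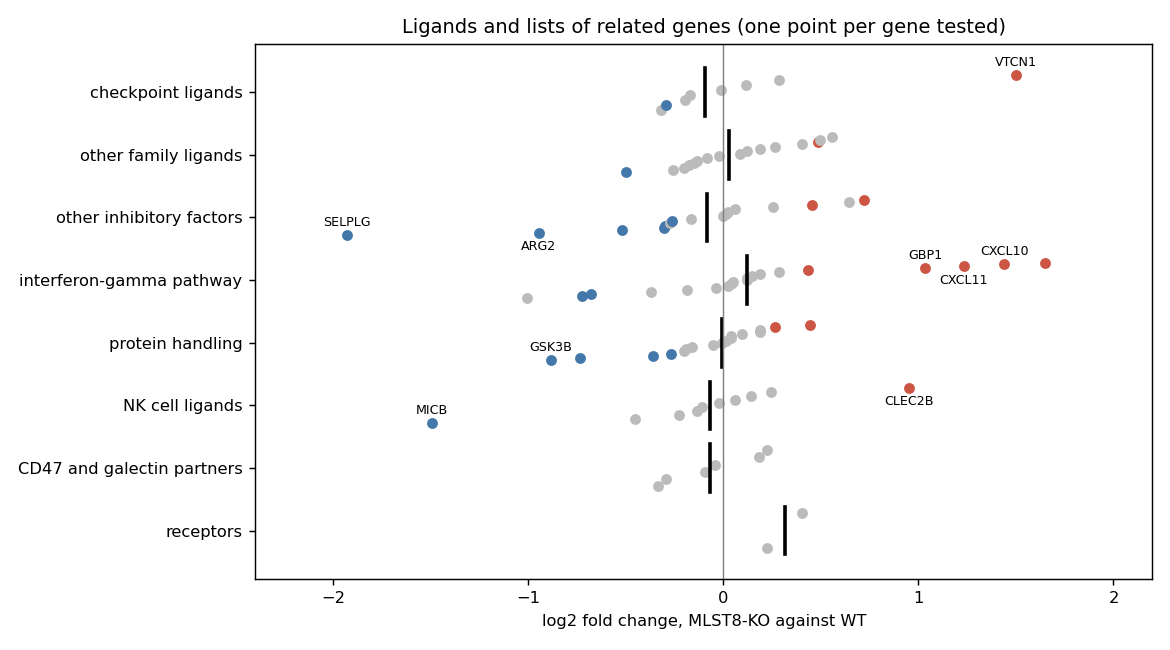
Log2 fold change in MLST8-KO against WT cells (x axis) of the tested checkpoint ligands and of 7 lists of related genes, with a point for each gene. Red points are higher and blue points lower at an adjusted p under 0.05 by edgeR, grey points are not past it, and black lines are list medians. Named points include SELPLG at -1.93, MICB at -1.49, CXCL10 at 1.44 and VTCN1 at 1.50.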

How the data were processed

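RNA-seq libraries were prepared by polyA selection from 3 WT and 3 MLST8-KO samples of HCC2814 cells, and samples were grouped by their labels. Per the study's methods and the submitters' processing notes, low-quality and adapter reads were removed by the authors, who used HISAT (build GRCh38.p12) for alignment and Bowtie2 to assign reads to genes. The authors deposited estimated counts, which are not normalized, and TPM, which is scaled by transcript length and depth. A further table of the authors' own comparison was not used. Estimated counts (12.4% not whole) were rounded, and 25 symbols that had been turned into dates were restored by Entrez identifier.

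Tests used edgeR 4.0.16 in R 4.3.3 (filterByExpr by group with a minimum of 10 counts, TMM scaling, glmQLFit, glmQLFTest). P-values were adjusted by Benjamini-Hochberg over all 12951 genes tested, with 0.05 as the threshold. The SE was derived from the log2 fold change and its F statistic. The fit was tested on simulated counts in which 200 genes were changed. It recovered 44% of the genes changed by 0.5 on the log2 scale and 86.9% of those changed by 1. Of its calls, 7.80% were unchanged genes. Changes smaller than 0.5 were not simulated. The simulation changed 200 of 12869 genes, while the data had 2116 higher and 2030 lower genes among 12951. The adjustment of p-values depends on that share, so the recovered percents are not the sensitivity of the real comparison. Exact permutation tests were 2-sided over the 6 samples. Other settings tried were limma 3.58.1 on log2(TPM + 1) and log2(TPM + 0.1), DESeq2 1.42.0, other scalings and filters, a replicate block and each sample left out. The submitters describe the replicates as independent experiments. Within groups, samples differed beyond sampling noise (chi-square per gene 6.71 to 25.2). Totals of 14381677 to 15744165 counts set the precision, and Poisson intervals cover counting error only.

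The ligands and gene lists were chosen with earlier results of these data known. Genes named are the 10 ligands, MLST8, SELPLG, overlapping genes and copies, and, from each list, up to 5 called genes of 20 or more counts on average, by size of change, or else the 2 with the highest TPM. Coordinates are those of GENCODE on GRCh38 and promoters those of RefSeq. Figures were drawn with matplotlib 3.10.9.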

Additional observations from a re-analysis of the deposited data

How the results depend on the processing

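Of the 8 tested ligands, PVR, CD47 and LGALS9 kept their sign and stayed short of the threshold under all 14 alternatives, while NECTIN2 and VTCN1 kept their sign but not always their call. DESeq2 called 0 ligands higher, and at least 10 counts in every sample gave 0 higher because VTCN1 was then not tested. On log2(TPM + 1) and log2(TPM + 0.1), limma called 0 ligands lower. With a sample left out, 0 to 2 ligands were higher and 0 to 1 lower. CD276 turned its sign with upper quartile scaling (0.041), log2(TPM + 1) (0.091) and log2(TPM + 0.1) (0.092), without WT replicate 3 and without MLST8-KO replicate 1, and ranged from -0.059 to 0.047 with a sample left out. CD274 turned without WT replicate 1 and without MLST8-KO replicate 3, and ranged from -0.14 to 0.43. The cause of these turns was not tested.

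Over all genes, 2116 were higher and 2030 lower (51.0% of calls higher). Limma on log2(TPM + 1) called 2782 and 1134 (71.0% higher), on log2(TPM + 0.1) 2764 and 1132, and upper quartile scaling in edgeR 2546 and 1559 (62.0% higher). The median of all genes was 0.09 and 0.10 on the TPM scales and 0.06 with upper quartile scaling. Leaving out a sample gave 969 to 2692 higher and 852 to 2652 lower genes. Over the pathway lists together, 11 genes were higher and 14 lower of 83 tested, 4 to 13 and 6 to 16 with a sample left out. Upper quartile scaling gave 12 higher and 8 lower (60.0% of calls higher against 44.0%), and limma on each TPM scale 15 and 8 (65.2%).

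The replicate block in edgeR gave 2262 higher and 2157 lower genes, with 1 ligand higher and 1 lower as without it. Deviations of same-numbered samples correlated at 0.178, 0.0569 and 0.199 for replicates 1, 2 and 3 and those of other pairs at 0.0270 or less, so each sample correlated best with its own number. This is a hint from the data, not the design, and the samples were not treated as paired.

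Depth limits the 5 lowest ligands, at 0 to 30 counts per sample.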
